A study of Mus musculus with 12 samples.

Results

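The colony-stimulating factors and their receptors were followed across cultures and tumors of 4T1, a mouse mammary carcinoma line used as a model of triple-negative breast cancer. The set was 8 of the 39017 genes counted, taken by gene symbol: the ligands Csf1, Il34, Csf2 and Csf3, and the receptor genes Csf1r, Csf2ra, Csf2rb and Csf3r. There were 12 RNA libraries in 4 groups of 3. All carried the 4T1 background, and they were labelled either POGZ KO or, as the control (VC), POGZ WT. Culture RNA was taken at 75% confluency from cells kept in DMEM that held 10% FBS. For tumors, 50000 cells went into the mammary fat pad of 8-week-old BALB/c mice, the strain 4T1 came from, and the tumors were removed at 28 days and flash frozen. The mice keep their own blood, stromal and immune cells, so tumor RNA is a mixture of host and 4T1 RNA. The labels do not say whether the KO line is 1 clone, nor whether libraries of the same culture group were grown separately. The p-values therefore measure the spread between these libraries, which may be technical in culture.

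Colony-stimulating factors are secreted proteins that drive the production, survival and activation of myeloid cells. CSF1 (M-CSF) and IL-34 are separate ligands of 1 receptor tyrosine kinase, CSF1R, which macrophages need to survive. CSF2 (GM-CSF) binds a specific alpha chain, CSF2RA, and signals through the common beta chain CSF2RB, while CSF3 (G-CSF) binds CSF3R and drives the production of neutrophils. Tumors of 4T1 are known for a strong granulocyte response in their hosts, and tumor-derived CSF1 is known to recruit macrophages in breast cancer models.

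Culture libraries held 14724518 to 21863223 counts, KO tumors 12128993 to 13043831 and VC tumors 4712001 to 8338828, so the VC tumors were the shallowest. Pogz itself, the targeted gene, stood at 48.1 to 52.0 CPM (counts of the gene per 1000000 counts in its library) in VC cultures. It was higher in KO cultures, at 67.8 to 68.6 CPM (log2 fold change 0.45 ± 0.04 SE, edgeR adjusted p = 3.66e-06). The labels do not give the edited site, so these whole-gene counts neither bear out nor go against the KO label. Pogz lies on chromosome 3, its 20 nearest measured neighbours had a median of 0.35, and with each chromosome's median taken out it was at 0.12 (edgeR adjusted p = 0.0405). Directions below are those of the libraries labelled KO over those labelled VC. Mammary epithelial markers such as Krt18 and Krt8 summed to 3548 to 4177 CPM in cultures and to 1895 to 2619 CPM in tumors. Macrophage markers summed to 34.8 to 42.4 CPM in cultures and to 1779 to 3787 CPM in tumors, and neutrophil markers to 19.9 to 46.1 and 189 to 783 CPM. Most of the neutrophil sum in cultures was Mmp9, which averaged 42 CPM in VC and 20.4 CPM in KO cultures. In tumors Mmp9 averaged 97 CPM in VC and 132 CPM in KO. Among the tumors, POGZ_KO_8459 stood apart in B and plasma cell markers, at 1506 CPM against 5.45 to 91.3 in the other 5, and in T and NK cell markers, at 217 CPM against 61.4 to 105.

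In culture the 4 ligands did not move together: Csf1 rose in the KO libraries, and Csf2, Csf3 and Il34 fell. Csf1r counts also fell, and its exonic bases overlap those of Hmgxb3, a gene on the opposite strand. Csf2ra, Csf2rb and Csf3r were at or near 0. All 5 members with enough counts to be tested were called by edgeR's quasi-likelihood test at a Benjamini-Hochberg adjusted p under 0.05, 1 higher and 4 lower. In that comparison 47.9% of the 15705 genes tested were called, 23.0% higher and 24.9% lower, so a call was common among all genes. The KO and VC libraries did not overlap for any of these 5 members, which held for 55.7% of all genes tested. With all 12 libraries in 1 edgeR fit, where tumors and cultures share the estimate of spread, Csf1 and Csf2 were called, while the calls of Csf3 (adjusted p = 0.109), Csf1r (0.129) and Il34 (0.258) were lost, as was that of Pogz (0.098). An exact permutation test of 3 against 3 cannot go below p = 0.1, two-sided, and each of the 5 stood at that value. In a fit of all 12 libraries with 1 shared spread, Csf1 and Csf2 were still called, and Csf3 (edgeR, adjusted p = 0.109), Csf1r (0.129) and Il34 (0.258) were not.

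Csf1 (ENSMUSG00000014599, chromosome 3, 107741048 to 107760469, minus strand, GRCm38) had 133, 127 and 122 CPM in VC cultures 1, 2 and 3 and 289, 308 and 299.8 CPM in KO cultures 1, 2 and 3. All KO cultures lay far above all VC cultures, and the groups were far apart relative to their spread of 127 ± 5.50 and 299 ± 9.67 CPM (SD, n = 3). The log2 fold change was 1.24 ± 0.04 (SE, edgeR, adjusted p = 8.09e-10). Genes on chromosome 3 as a whole were higher in the KO cultures, with a median log2 fold change of 0.33. The 20 nearest measured neighbours of Csf1 had a median of 0.38 and ranged from -0.29 to 0.85, all below Csf1. With each chromosome's median taken out, Csf1 was at 0.91 ± 0.04 (edgeR, adjusted p = 1.05e-08).

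The upstream sequence of Csf1 is shown because Csf1 was the 1 ligand that rose and because NF-kB, a transcription factor of inflammatory signaling, is a known regulator of several of these genes. It covers the 250 bases before the RefSeq start, chr3:107760470-107760719 on GRCm38.p6, minus strand. Capitals mark matches on either strand to an NF-kB-like motif, GGGA and CC with any 4 bases between them. There were 3, of which a pair overlaps almost wholly, at -231 to -222 on the minus strand, -155 to -146 on the plus strand and -154 to -145 on the minus strand relative to the start.
Csf1: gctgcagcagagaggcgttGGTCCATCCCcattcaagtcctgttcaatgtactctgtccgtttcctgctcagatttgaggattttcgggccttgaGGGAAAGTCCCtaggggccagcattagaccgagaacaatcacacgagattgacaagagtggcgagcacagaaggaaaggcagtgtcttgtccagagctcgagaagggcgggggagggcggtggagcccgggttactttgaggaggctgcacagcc
Such a match is a description and not a binding site, and 17.6% of the 32851 promoter windows of that length held at least 1. The AP-1 motif TGANTCA, read on both strands, was in 6.75% of windows and not in this one. Of the 8 members, 4 had an entry in the RefSeq promoter table. In the Csf2 window neither motif was found, but its RefSeq start lies 232 bases upstream of the start of the gene in GENCODE, so the window is not the stretch before the annotated gene.

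Csf2 (ENSMUSG00000018916, chromosome 11, 54247271 to 54249667, minus strand) moved the other way. VC cultures 1, 2 and 3 had 8.36, 7.67 and 8.97 CPM, from 143 to 166 counts each, and KO cultures had 2.84, 2.45 and 2.33 CPM, from 36 to 51 counts. The highest KO value was below the lowest VC value by more than the range of either group. The log2 fold change was -1.71 ± 0.14 (SE, edgeR, adjusted p = 6.86e-07). Csf2 shares 96 of its 800 exonic bases with Gm12223 on the opposite strand. Gm12223 had 62 to 70 counts in VC cultures and 12 to 24 in KO cultures, and 14 to 43 in VC tumors and 37 to 48 in KO tumors. Without a stated strand setting the reads of this pair cannot be told apart, in cultures or in tumors. No fit took this overlap out of the Csf2 counts.

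Csf3 (ENSMUSG00000038067, chromosome 11, 98701263 to 98703629, plus strand) was the most abundant ligand RNA per length in VC cultures. Its levels were 65.9, 68.2 and 78.1 CPM in VC cultures 1, 2 and 3 and 33.5, 28.7 and 31.0 CPM in KO cultures. All KO cultures lay well below the lowest VC culture, and the log2 fold change was -1.18 ± 0.07 (SE, edgeR, adjusted p = 9.93e-08). Csf2 and Csf3 both lie on chromosome 11, whose median log2 fold change was -0.04. The 20 neighbours of Csf2 ranged from -0.81 to 0.42 and those of Csf3 from -0.89 to 0.68, with medians of -0.09 and -0.08, so both genes lay below all of their neighbours.

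Il34 (ENSMUSG00000031750, chromosome 8, 110741829 to 110805924, minus strand), the second ligand of CSF1R, was the scarcest per length, though in KO cultures Csf2 had fewer CPM. VC cultures had 4.86, 3.81 and 4.32 CPM and KO cultures 3.65, 3.19 and 2.38 CPM, and the highest KO value stood just below the lowest VC value. Its log2 fold change of -0.50 ± 0.18 (SE, edgeR, adjusted p = 0.0336) was the weakest of the 5 calls. The call was lost with DESeq2 (adjusted p = 0.0892), with all libraries thinned to the smallest (edgeR adjusted p = 0.062) and with the chromosome medians taken out (-0.41, edgeR adjusted p = 0.0855). It was also lost without any 1 of KO culture 2 or 3 or VC culture 1 or 3 (edgeR adjusted p from 0.052 to 0.191). Il34 shares 22 of its 1959 exonic bases with Gm15894 and 75 with Gm15895, both on the opposite strand. Gm15894 had 7 to 18 counts in cultures and 8 to 39 in tumors. Reads in these shared bases cannot be told apart without a stated strand setting.

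**Figure D1:**
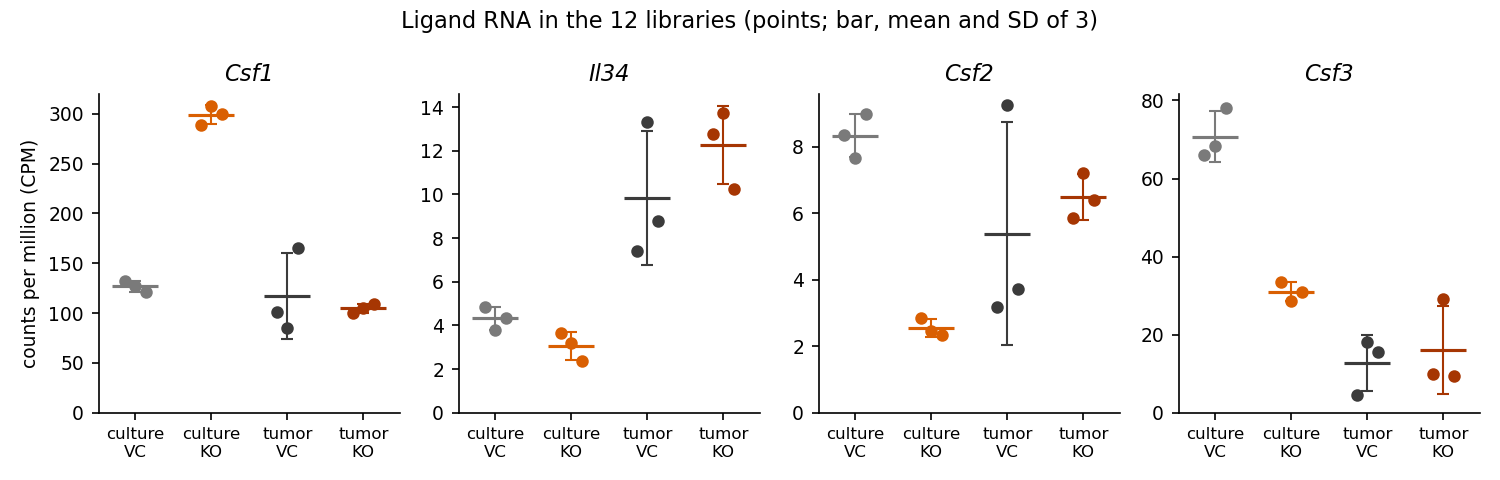
CPM values of the 4 ligand RNAs in every library, by group, on linear axes that start at 0 and differ between panels. Points are libraries, horizontal bars are means and error bars are SDs of 3. The KO cultures lie above the VC cultures for Csf1 (289 to 308 against 122 to 133 CPM) and below them for the other 3 ligands, while KO and VC tumors overlap in every panel.

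Because CPM favours long transcripts, ligands were set against each other as CPM per kilobase of exon. In VC cultures the order of these levels was Csf3 (50.1 ± 4.58 CPM per kilobase, SD, n = 3), Csf1 (24.1 ± 1.04), Csf2 (10.4 ± 0.812) and Il34 (2.21 ± 0.267). In KO cultures Csf1 led (56.6 ± 1.83), followed by Csf3 (21.98 ± 1.71), Csf2 (3.17 ± 0.333) and Il34 (1.57 ± 0.329). No neighbours in either order overlapped over the 3 libraries. Csf1 and Csf3 thus changed places. The per-length ratio of Csf1 to Csf3 was 0.484 ± 0.0620 in VC cultures and 2.59 ± 0.284 in KO cultures (SD, n = 3), and that of Csf1 to Csf2 was 2.32 ± 0.239 and 17.99 ± 2.24. Csf3 to Csf2 was nearer, at 4.81 ± 0.302 and 6.95 ± 0.502.

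Csf1r (ENSMUSG00000024621, chromosome 18, 61100598 to 61132149, plus strand), a macrophage receptor, also had counts in the cultures. VC cultures 1, 2 and 3 had 21.9, 23.2 and 26.9 CPM and KO cultures 14.4, 12.8 and 14.8 CPM, and the groups did not overlap (log2 fold change -0.76 ± 0.09 SE, edgeR, adjusted p = 2.04e-05). Of the 18 other macrophage and monocyte markers, 13 averaged under 0.5 CPM in each culture group, and Adgre1 (F4/80) and Ms4a7 had no count in any culture. The 5 that were measured were Cd68, a lysosomal protein, at a mean log2 CPM of 4.55, Cd14 at 3.11, Apoe at 2.16, Cx3cr1 at 0.56 and Mertk at 0.20, so Cd68 was near the level of Csf1r. The last 873 exonic bases of Csf1r, chromosome 18, 61131277 to 61132149, also belong to Hmgxb3, an HMG-box gene on the opposite strand. They make up 15.1% of the exonic bases of Csf1r and 17.1% of the Hmgxb3 transcript of 5103 bases.

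Hmgxb3 was well expressed in every culture, at 79.8 to 82.3 CPM in VC and 65.3 to 69.8 CPM in KO. If reads covered that transcript evenly, the overlap would hold reads equal to 52.4% to 62.9% of the Csf1r counts in VC cultures and 80.2% to 87.0% in KO cultures. The same share was 2.95% to 8.43% in tumors. The exons of all Hmgxb3 transcripts together cover 10865 bases, and with that length in place of 5103 bases every share would be smaller. Whether reads were counted by strand is not given in the sources used here. Another pair, Rmrp and Ccdc107, lie on opposite strands and share 124 of the 281 exonic bases of Rmrp. The counts of Ccdc107 were 94.1% to 98.8% of those of Rmrp in all 12 libraries. With Csf1r counts lessened by that expected number, an alternative chosen after the data were seen, the culture log2 fold change was -2.06 ± 0.21 (SE, edgeR, adjusted p = 5.32e-06). The direction was the same, but the culture level of Csf1r RNA itself was not settled by these counts.

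**Figure D2:**
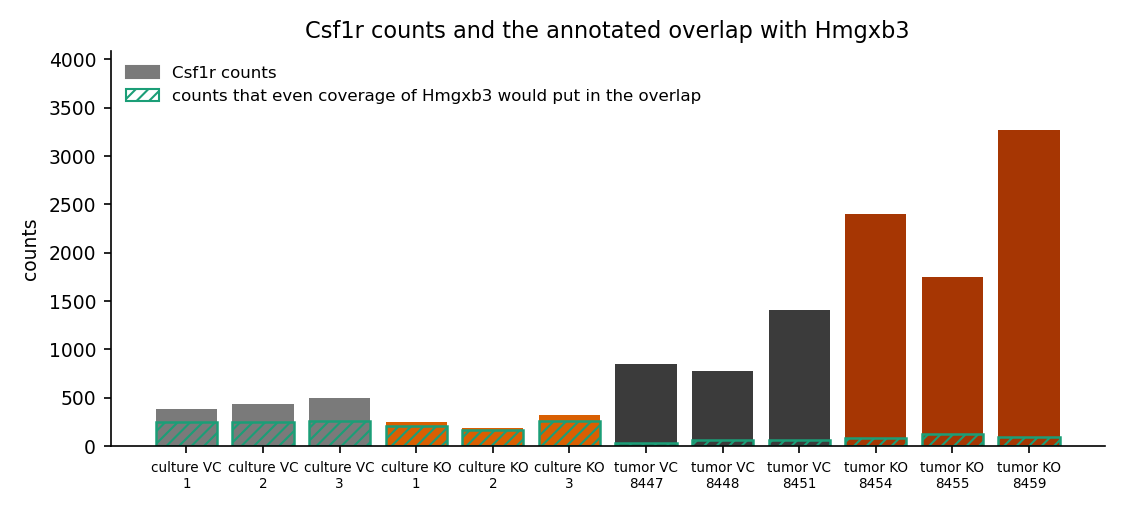
Counts of Csf1r in each of the 12 libraries (filled bars, from 0) and, hatched, the counts that even coverage of the Hmgxb3 transcript would place in the exonic bases the 2 genes share. The hatched part takes up 52.4% to 87.0% of the culture bars and 2.95% to 8.43% of the tumor bars.

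The other receptors left almost no counts in culture. Csf2ra, the GM-CSF alpha chain (ENSMUSG00000059326, chromosome 19, 61223957 to 61228429, minus strand), had 3 counts over all VC cultures and 2 over all KO cultures. Csf2rb, the common beta chain (ENSMUSG00000071713, chromosome 15, 78325752 to 78353847, plus strand), had 1 and 2. Csf3r, the G-CSF receptor (ENSMUSG00000028859, chromosome 4, 126024550 to 126044440, plus strand), had 1 and 0, and a count of 0 over the KO cultures allows up to 0.0557 CPM, for counting error alone. No difference between KO and VC cultures was detectable for these 3 at this depth, and they did not pass the low-count filter.

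In tumors none of the 8 members was called between KO and VC, and the groups overlapped for all 8. The libraries do not show that the groups were alike, since 1 SE of a log2 fold change was 0.25 to 0.58 here against 0.04 to 0.18 in culture. All 8 passed the low-count filter. edgeR called 0 of 17153 genes (0%), with 956 at an unadjusted p under 0.05, limma-voom called 0 and DESeq2 called 66. No member was called by any of these tools, and none of the 8 had an unadjusted p under 0.05. Groups did not overlap for 10.4% of all genes.

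Csf1 stood at 101, 84.7 and 166 CPM in the tumors POGZ_VC_8447, POGZ_VC_8448 and POGZ_VC_8451 and at 99.6, 106 and 109 CPM in the tumors POGZ_KO_8454, POGZ_KO_8455 and POGZ_KO_8459. The KO tumors were close together and lay inside the VC range, which was wide because of tumor POGZ_VC_8451. The log2 fold change was -0.16 ± 0.25 (SE, edgeR, adjusted p = 0.937), and it was 0.19 without tumor POGZ_VC_8451. Il34 stood at 7.43, 13.3 and 8.77 CPM in VC tumors and at 12.8, 13.7 and 10.3 CPM in KO tumors, a log2 fold change of 0.31 ± 0.28 (edgeR, adjusted p = 0.912). The VC tumor POGZ_VC_8448 lay among the KO tumors, and the other VC tumors lay below them.

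Csf2 was at 3.18, 9.23 and 3.72 CPM in VC tumors, from 15, 77 and 28 counts, and at 5.85, 7.21 and 6.40 CPM in KO tumors. The KO values fell between the VC values, and the log2 fold change was 0.25 ± 0.42 (SE, edgeR, adjusted p = 0.944), with a value of -0.02 without tumor POGZ_VC_8447 and of 0.90 ± 0.30 without tumor POGZ_VC_8448, where all KO tumors lay above both VC tumors left. Csf3 was at 4.67, 18.1 and 15.7 CPM in VC tumors and at 9.81, 29.2 and 9.36 CPM in KO tumors. Its highest value was in tumor POGZ_KO_8455 and its lowest in tumor POGZ_VC_8447, which were also the highest and the second lowest tumors in neutrophil markers, at 783 and 253 CPM. The log2 fold change of Csf3 was 0.30 ± 0.58 (edgeR, adjusted p = 0.947) and -0.44 without tumor POGZ_KO_8455.

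Per length, Csf1 led the ligands of VC tumors at 22.2 ± 8.11 CPM per kilobase (SD, n = 3) and did not overlap with the next. Csf3 (9.07 ± 5.07), Csf2 (6.72 ± 4.19) and Il34 (5.02 ± 1.57) followed, each overlapping with its neighbour. The order was the same in KO tumors, with Csf1 at 19.8 ± 0.880, Csf3 at 11.4 ± 8.02, Csf2 at 8.11 ± 0.851 and Il34 at 6.26 ± 0.914 CPM per kilobase, and only Csf2 and Il34 were neighbours without overlap. The reversed order of Csf1 and Csf3 that set KO cultures apart from VC cultures was not seen between the tumor groups, which both had more Csf1 than Csf3 per length on average.

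Receptor RNAs varied widely among tumors of the same label. Csf1r was at 181, 93.4 and 187 CPM in the tumors POGZ_VC_8447, POGZ_VC_8448 and POGZ_VC_8451 and at 198, 134 and 269 CPM in the tumors POGZ_KO_8454, POGZ_KO_8455 and POGZ_KO_8459 (log2 fold change 0.39 ± 0.33 SE, edgeR, adjusted p = 0.900). The value was 0.11 without tumor POGZ_KO_8459, 0.13 without tumor POGZ_VC_8448 and 0.61 without tumor POGZ_KO_8455. Tumor POGZ_VC_8448 had the lowest and tumor POGZ_KO_8459 the highest Csf1r, and the same 2 tumors had the lowest and the highest sum of macrophage markers, 1779 and 3787 CPM. Csf3r was at 21.9, 55.4 and 63.8 CPM in VC tumors and at 32.2, 88.8 and 43.8 CPM in KO tumors (0.21 ± 0.47, edgeR, adjusted p = 0.954). It was highest in tumor POGZ_KO_8455, as Csf3 and neutrophil markers were, and its log2 fold change was -0.32 without that tumor.

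The ranges of Csf2ra nearly coincided, at 17.6, 19.1 and 31.1 CPM in VC tumors and 20.6, 22.8 and 28.8 CPM in KO tumors (log2 fold change 0.09 ± 0.27 SE, edgeR, adjusted p = 0.966). Csf2rb was at 81.3, 79.0 and 100.3 CPM in VC tumors and at 79.7, 130 and 188 CPM in KO tumors. Here 2 of the 3 KO tumors lay above all VC tumors and tumor POGZ_KO_8454 lay beside the lowest. The log2 fold change was 0.61 ± 0.30 (SE, edgeR, unadjusted p = 0.0764, adjusted p = 0.861) and 0.26 without tumor POGZ_KO_8459, the tumor rich in B and plasma cell markers. What part the lymphoid RNA of that tumor has in the value was not tested.

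Mice carry a near copy of Csf2rb, Csf2rb2, which encodes the beta chain specific to IL-3. It was at 57.7, 44.4 and 51.7 CPM in VC tumors and at 57.7, 82.3 and 122 CPM in KO tumors, in the same order of KO tumors as Csf2rb (log2 fold change 0.78 ± 0.27 SE, edgeR, unadjusted p = 0.0221, adjusted p = 0.861). A stretch of both coding sequences, bases 2063 to 2344 of each from the start codon, is shown because the pair shares long identical runs. Capitals mark the bases that differ, and between them lies the longest identical run, 242 bases.
Csf2rb: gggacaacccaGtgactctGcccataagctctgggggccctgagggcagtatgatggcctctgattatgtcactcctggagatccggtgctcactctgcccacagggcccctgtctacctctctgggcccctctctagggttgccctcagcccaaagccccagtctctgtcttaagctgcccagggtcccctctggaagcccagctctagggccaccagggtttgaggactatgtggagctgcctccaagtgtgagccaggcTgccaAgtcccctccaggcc
Csf2rb2: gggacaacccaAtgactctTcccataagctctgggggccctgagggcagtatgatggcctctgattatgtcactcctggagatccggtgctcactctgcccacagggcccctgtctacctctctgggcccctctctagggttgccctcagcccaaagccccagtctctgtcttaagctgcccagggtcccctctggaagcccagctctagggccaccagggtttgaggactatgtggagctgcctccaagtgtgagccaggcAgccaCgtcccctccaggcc
The coding sequences were 95.2% identical over 2631 aligned bases, and 52.8% of the Csf2rb coding sequence lay in identical runs of at least 50 bases. Counts of either gene are therefore uncertain, since how reads that fit both were counted is not given in the sources used here.

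**Figure D3:**
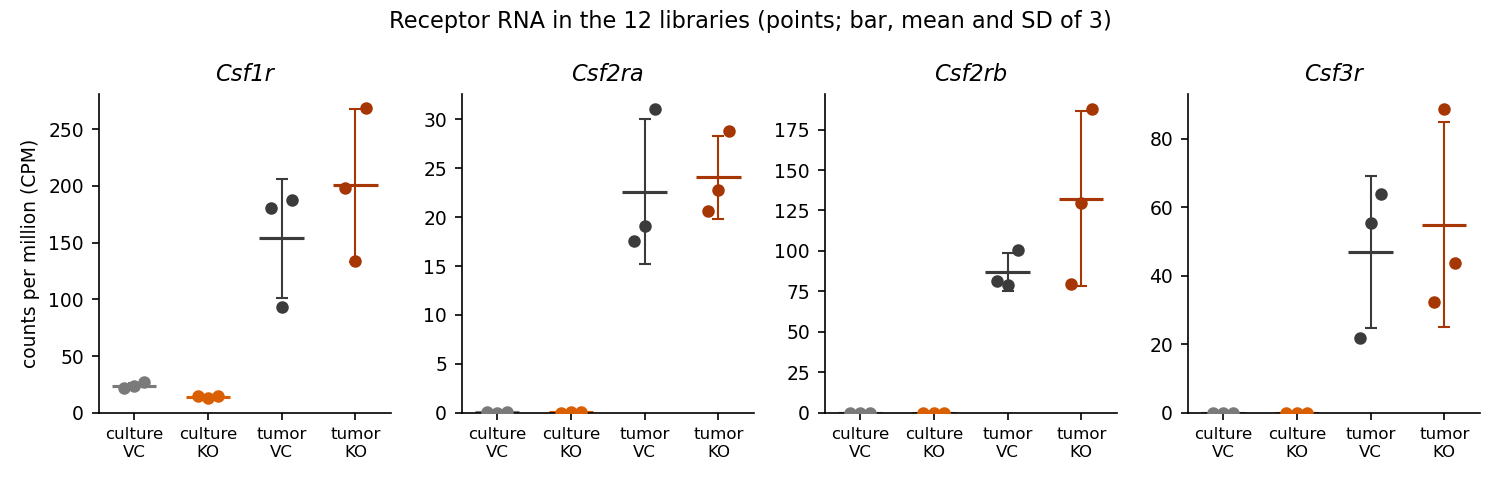
CPM values of the 4 receptor RNAs in every library, by group, on linear axes that start at 0 and differ between panels. Points are libraries, horizontal bars are means and error bars are SDs of 3. Csf2ra, Csf2rb and Csf3r lie at or near 0 in all 6 cultures and between 17.6 and 188 CPM in the tumors, where KO and VC overlap.

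In bulk tumor RNA, fewer cells of a type and less RNA per cell cannot be told apart. Receptor levels were therefore also taken relative to myeloid markers, as the log2 level of the receptor minus the mean log2 level of the marker list, with a pseudocount of 0.5 CPM. Csf1r relative to 18 macrophage and monocyte markers was 1.22 ± 0.18 in VC tumors and 1.24 ± 0.29 in KO tumors (SD, n = 3; difference 0.02, exact permutation test, two-sided p = 1.0). Csf3r relative to the 14 neutrophil markers that passed the tumor filter was 1.604 ± 0.32 and 1.84 ± 0.14 (difference 0.24, exact p = 0.3, n = 3). For Csf2ra and Csf2rb, set against both lists, the differences were -0.06 and 0.35 (exact p = 0.9 and 0.2). With Benjamini-Hochberg adjustment over these 4 exact tests the p-values were 1.0, 0.6, 1.0 and 0.6. No difference was larger than the larger SD of its 2 groups, but those of Csf3r and Csf2rb were larger than the smaller SD. For Csf2rb the SDs were 0.18 in VC and 0.40 in KO tumors. The sign of the differences of Csf1r and Csf2ra depended on single tumors. Relative to its markers, Csf1r ranged from 0.91 to 1.49 on the log2 scale over the tumors.

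**Figure D4:**
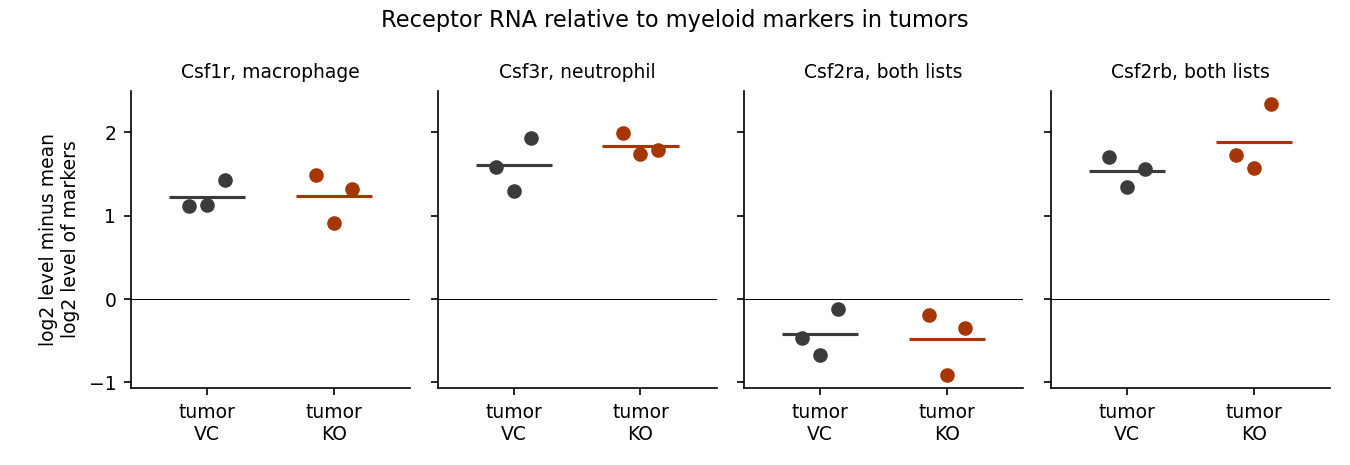
Log2 level of each receptor minus the mean log2 level of its marker list in the 6 tumors (points, with the group mean as a bar). Csf1r is set against macrophage and monocyte markers, Csf3r against neutrophil markers and the GM-CSF receptor chains against the mean of both lists. VC and KO points overlap in every panel.

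The difference between the effect in tumors and the effect in culture was tested directly, over all 12 libraries. Csf1 had a difference of -1.40 ± 0.28 on the log2 scale (SE, edgeR interaction, adjusted p = 0.024) and Csf2 of 1.95 ± 0.44 (edgeR, adjusted p = 0.0474), and both were called. Of all 18419 genes 2.05% were called in this test, 0.912% in the direction of Csf1 and 1.13% in that of Csf2. Csf3 (1.46 ± 0.61, edgeR, adjusted p = 0.276), Il34 (0.80 ± 0.34, adjusted p = 0.280) and Csf1r (1.16 ± 0.40, adjusted p = 0.174) were not called, so for these 3 the tumor effect was not shown to differ from the culture effect. Csf2ra, Csf2rb and Csf3r are not given for this test, since their culture counts were 0 to 3 per group.

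Both calls were near the threshold. The Csf1 call was lost without any 1 culture library (adjusted p from 0.0689 to 0.0843) and without tumor POGZ_KO_8455 (0.0527), and over all alternatives its adjusted p ran from 0.000356 to 0.0843. The Csf2 call was lost without any 1 culture library (0.111 to 0.159), without tumor POGZ_KO_8455, POGZ_KO_8459, POGZ_VC_8447 or POGZ_VC_8451 (0.0668 to 0.102), with the upper-quartile scaling (0.057), with no filter (0.0608) and with thinning to the smallest library (0.0878). Without tumor POGZ_VC_8448 the Csf2 difference was 2.60 (adjusted p = 0.00122). Neither changed sign in any alternative run. With the Hmgxb3 overlap taken from its counts, Csf1r had a difference of 2.48 (edgeR, adjusted p = 0.0263). The number of counts taken out rests on the length of 1 Hmgxb3 transcript.

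**Figure D5:**
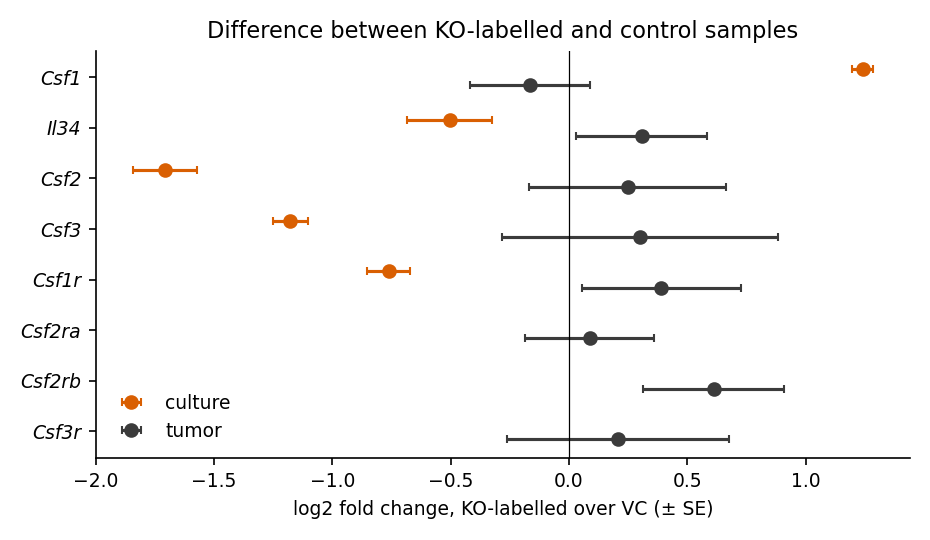
Log2 fold change of the KO-labelled over the VC libraries for each member, in culture (orange) and in tumors (dark), with 1 SE. Csf2ra, Csf2rb and Csf3r have no culture value because they had 0 to 3 counts per culture group. The culture values run from -1.71 for Csf2 to 1.24 for Csf1, and the tumor values lie between -0.16 and 0.61.

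Tumors and cultures of the same label also differed in these genes. Between VC tumors and VC cultures 64.9% of genes were called, 37.9% higher and 27.0% lower, and between KO tumors and KO cultures 64.1%, 37.7% higher and 26.4% lower. Of the 5 members that were also measured in culture, 2 were higher in VC tumors (Il34 and Csf1r) and 1 lower (Csf3), and 3 were higher in KO tumors (Il34, Csf1r and Csf2) and 1 lower (Csf1). Csf2ra, Csf2rb and Csf3r passed the low-count filter through the tumors alone, so that they were called higher was fixed by the filter. The 2 comparisons share no library. They compare a cell line with a tissue that holds many other cells, so a difference may lie in 4T1 cells or in host cells.

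Csf1 was not called between VC tumors and VC cultures (117 ± 42.8 and 127 ± 5.50 CPM, SD, n = 3; log2 fold change -0.08 ± 0.20 SE, edgeR, adjusted p = 0.731), with a value of -0.45 (adjusted p = 0.00261) without tumor POGZ_VC_8451. In the KO samples it fell from 299 ± 9.67 in culture to 105 ± 4.64 CPM in tumors (-1.48 ± 0.20, edgeR, adjusted p = 5.07e-05). Csf2 was not called between VC tumors and cultures (-0.57 ± 0.31, edgeR, adjusted p = 0.129), except without tumor POGZ_VC_8448 (-1.22, adjusted p = 0.000459). Csf2 was higher in KO tumors than in KO cultures (1.38 ± 0.32, adjusted p = 0.00242). Csf3 fell from 70.8 ± 6.48 to 12.8 ± 7.16 CPM in the VC samples (-2.38 ± 0.45, edgeR, adjusted p = 0.000631). In the KO samples Csf3 was at 31.1 ± 2.42 and 16.1 ± 11.3 CPM (-0.92 ± 0.42, adjusted p = 0.0754), and it was called without tumor POGZ_KO_8455 (-1.65, adjusted p = 0.00242), without tumor POGZ_VC_8447 (-0.93, 0.0344), with no filter (-1.11, 0.033) and with limma-voom (-1.11, 0.0211). Il34 was the 1 ligand higher in both kinds of tumor, by 1.23 ± 0.24 in VC (edgeR, adjusted p = 0.000875) and 2.03 ± 0.24 in KO (adjusted p = 2.26e-05).

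Among the receptor genes, Csf1r was the 1 whose call in tumors against cultures was not fixed by the filter. Csf1r was higher by 2.71 ± 0.29 on the log2 scale in VC (SE, edgeR, adjusted p = 9.75e-06) and by 3.87 ± 0.31 in KO (adjusted p = 9.88e-07), with its culture counts uncertain as above. For the other 3 the ratio of pooled counts is given as a description, with an exact 95% interval that covers counting error alone. Csf2ra was 423-fold higher in VC tumors (interval 144 to 2059) and 647-fold in KO tumors (179 to 5352). Csf2rb was 4792-fold higher (859 to 189361) and 3566-fold (987 to 29454), each resting on 1 or 2 culture counts. Csf3r was 2786-fold higher in VC tumors (499 to 110162), and at least 1001-fold higher in KO tumors, taking 3 counts over the KO cultures as the floor.

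Per length, Csf1r led the receptors of VC tumors at 26.6 ± 9.06 CPM per kilobase (SD, n = 3), followed by Csf3r at 13.0 ± 6.15, Csf2rb at 11.9 ± 1.61 and Csf2ra at 7.87 ± 2.58. Of these neighbours only Csf2rb and Csf2ra did not overlap. In KO tumors the order was Csf1r (34.7 ± 11.7), Csf2rb (18.2 ± 7.44), Csf3r (15.2 ± 8.28) and Csf2ra (8.38 ± 1.48 CPM per kilobase), with overlap between all neighbours. The 2 chains of the GM-CSF receptor stood at a Csf2rb to Csf2ra ratio per length of 1.58 ± 0.279 in VC and 2.12 ± 0.536 in KO tumors. The beta chain is shared with the receptors of IL-3 and IL-5.

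Genes around this pathway were read from 5 lists in the cultures, where the median of all genes was -0.01 on the log2 scale. Of 15 related cytokine and receptor genes, 5 were measured, and 0 were higher and 3 lower (median -0.43). Sdc1, syndecan-1, a proteoglycan that can bind IL-34, fell from 226 ± 3.05 to 115 ± 2.3 CPM (SD, n = 3; -0.96 ± 0.04 SE, edgeR, adjusted p = 2.18e-09). Kitl, stem cell factor, fell by 0.43 on the log2 scale and Il3ra, the IL-3 receptor alpha chain, by 1.24. Of 30 signal transduction genes 27 were measured, 8 higher and 10 lower (median -0.04). Ptpn11, the phosphatase SHP2, rose by 0.53, while Ptpn6, its inhibitory relative SHP1, fell by 1.23 and the Src-family kinase Lyn fell by 0.85. The median log2 fold change of a chromosome in culture ran from -0.45 (chromosome 6) to 0.33 (chromosome 3). Such shifts were not taken out of the values of list genes given here and below. Over the 19 alternatives the smallest fall was -0.78 for Ptpn6 and -0.57 for Lyn.

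Genes that act upstream of colony-stimulating factors, such as IL-1, IL-17 and NF-kB components, gave 7 higher and 10 lower of 22 measured of 24 (median -0.08). Il1a, a cytokine known to induce Csf2 and Csf3, fell from 299 ± 4.83 to 163 ± 4.43 CPM (SD, n = 3; -0.87 ± 0.04 SE, edgeR, adjusted p = 5.90e-09). Zc3h12a, an RNase that degrades inflammatory mRNAs, fell by 1.201 on the log2 scale, and Ikbkb, a kinase that activates NF-kB, by 0.56. Of 17 other myeloid cytokines and chemokines 11 were measured, 3 higher and 6 lower (median -0.14). Ccl2, the monocyte chemokine, rose by 1.42, Cx3cl1 fell by 0.84 and Il33, an alarmin, fell by 3.50. Of 13 myeloid transcription factors 6 were measured, 3 higher and 2 lower (median 0.07). Irf8, a monocyte lineage factor, fell by 2.44 and Klf4 by 1.26, while Zeb2 rose by 0.75. Each of the 13 genes given by size alone had an edgeR adjusted p of 0.0023 or less. With 47.9% of all genes called, the counts of these lists are a description. With all 12 libraries in 1 edgeR fit, the calls of Il1a (adjusted p = 0.236) and Kitl (0.677) were lost.

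In tumors 0 genes of the same 5 lists were called by edgeR, with 3 of 8, 4 of 30, 2 of 23, 4 of 17 and 1 of 11 measured at an unadjusted p under 0.05 in the order above. The medians were 0.20, 0.10, 0.07, 0.18 and 0.40, against 0.02 for all genes. Spp1, osteopontin, averaged 2070 CPM in KO and 1040 CPM in VC tumors (0.99 ± 0.18 SE, edgeR, adjusted p = 0.647). Spp1 was called with DESeq2 (adjusted p = 0.000394) and with all 12 libraries in 1 edgeR fit (0.00904), and Ikbkb, which averaged 141 CPM in KO and 194 CPM in VC tumors, with the latter alone (-0.47, 0.0253). That joint fit shares its estimate of spread with the cultures, which varied less. The SE there was 0.12 for Spp1 and 0.08 for Ikbkb, against 0.18 and 0.13 in the fit of tumors alone. Among other abundant genes of these lists, Zeb2 averaged 315 CPM in KO and 197 CPM in VC tumors, Jak2 651 and 726, Runx1 393 and 469, Kitl 144 and 235, Sdc1 313 and 340, Tslp 234 and 259, and Nfkb1 182 and 171. The SD of Kitl was 134 CPM in KO and 40.8 CPM in VC tumors (log2 fold change -0.70 ± 0.58 SE, edgeR, adjusted p = 0.896). Over 18 alternatives its log2 fold change ran from -1.81 to -0.31. Marker medians were 0.28 for 18 macrophage genes and -0.12 for 14 neutrophil genes. In the test of the tumor effect against the culture effect, 0 of 9, 2 of 30, 1 of 23, 2 of 17 and 2 of 11 were called, all higher, where 1.13% of all genes were called higher. These were Lyn (0.93 ± 0.17 SE, edgeR, adjusted p = 0.0144), Pik3r1 (0.94 ± 0.18), Nfkb2 (0.51 ± 0.12), Il33 (4.67 ± 0.84), Spp1 (0.93 ± 0.16), Irf8 (2.38 ± 0.43) and Klf4 (1.69 ± 0.28), named because they were all of the calls.

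Genes with the most similar profile to each member were found by Pearson's r of log2 levels over 6 libraries. Over the cultures, where the difference between the 2 groups sets most of the profile, Csf1 was nearest to Mmp15 (r = 0.9998), Map4 and Reep3, and Csf2 to Parp11 (0.9992), Glis3 and Carns1. Csf3 was nearest to Fam84b (0.9986), Rps2-ps10 and Serpina3h, and Il34 to Lsm10 (0.984), Rfwd3 and Ier2. Over the 6 tumors, Csf3 was nearest to Cxcr2 (0.986), the chemokine receptor of neutrophils, and then to Maff and Mfap2. Csf2rb was nearest to Syk (0.995), a kinase of immune receptors, Cd244a and Stard8, and Csf1r to Mrps24 (0.995), Slc39a8 and Naaa. Csf3r was nearest to Bcas3os1 (0.990), Rhov and Maff, which it shared with Csf3, and Csf2ra to Mrpl20 (0.979), Dus1l and Nxt1. Csf1 was nearest to Apbb3 (0.990), Gsap and Pdp2, Csf2 to Lrrn4cl (0.993), Zfp180 and Agk, and Il34 to Uxt (0.992), Cct4 and Ccdc6. These values of r are a description. Each is the highest of many genes compared over only 6 libraries, and a high r was found for every member. Whether a match reflects a shared cell type was not tested.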

How the data were processed

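Ribosomal-RNA-depleted libraries (KAPA RNA Hyper Prep with Ribo-Erase, per the labels' protocols) gave 2 tables of whole-number counts per gene, 1 for cultures and 1 for tumors, as the authors deposited them. The submitters' processing notes name the build mm10 and the tools featureCounts 1.4.4, STAR 2.3.0e and Trimmomatic 0.32. Their settings, the annotation and the use of strand are not given in the sources used here. Gene positions and exon lengths came from GENCODE M21 (GRCm38), which held 37693 of the 39017 Ensembl IDs.

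Counts were tested with edgeR 4.0.16 (R 4.3.3): filterByExpr, TMM, quasi-likelihood F test, Benjamini-Hochberg over all genes tested, called below an adjusted p of 0.05. Cultures had their own fit and tumors theirs. The interaction and the tumor against culture contrasts came from 1 model of all 12 libraries. SE is the size of the log2 fold change divided by the root of F. CPM is relative to total counts. The members and the 17 gene lists (230 symbols, all matched) were chosen with earlier results of these data known. Named were all members, Csf2rb2, Pogz, the 3 called genes of smallest p of each list or the 2 most abundant where none was called, and the 3 genes most like each member. Marker lists are mostly given by counts, sums and medians, so many genes that the rule takes from them are not named. The labels do not say whether the culture numbers mark a pairing, and culture libraries were treated as unpaired. No 2 libraries were identical. The tests were run on simulated counts first. Alternatives used DESeq2 1.42.0 and limma 3.58.1. Tables and figures were made with Python 3.11.15.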

Additional observations from a re-analysis of the deposited data

Results flagged for a closer look

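The KO effect on Csf1 differed between tumors and cultures by -1.40 on the log2 scale (edgeR interaction test, adjusted p = 0.024): all 3 KO cultures lay above all 3 VC cultures, and the KO tumors lay within the range of the VC tumors. The KO effect on Csf2 differed by 1.95 (edgeR interaction test, adjusted p = 0.0474): all 3 KO cultures lay below the VC cultures, and the KO tumors again lay within the range of the VC tumors. Of 23 alternatives, the Csf1 call was lost in 8 and the Csf2 call in 15. Csf2 counts may hold reads of Gm12223 in cultures and tumors, and this overlap was not taken out. Tumor RNA includes host RNA, so a difference in 4T1 cells and a difference in the share of 4T1 RNA cannot be told apart here.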

How the results depend on the processing

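In culture, all 5 measured members kept their direction in all 19 alternatives. In tumors no member was called in any of 18. Joint fitting of all 12 libraries gave 1501 called genes and 1 member lower in culture, and 64 called genes in tumors, where DESeq2 called 66. For the interaction, DESeq2 called 953 genes, an adjusted p of 0.01 left 125 genes and 0 members, and thinning all libraries to the smallest left 180. The count of members called higher there was 0 with upper-quartile scaling, no filter or thinning and with tumors POGZ_KO_8459 and POGZ_VC_8447 both left out (added after the data were seen), and 2 with the Hmgxb3 overlap taken out. Leaving out 1 library gave 147 (culture KO 3) to 1588 (tumor POGZ_KO_8454) interaction genes, 0 to 1 members higher and 0 to 1 lower, and 1 to 2 members lower in each tumor against culture comparison. Between KO tumors and cultures 2 members were lower with no filter and with limma-voom. With both of those tumors out, tumor log2 fold changes were -0.011 for Csf2, -0.23 for Csf2ra, -0.0035 for Csf3r, 0.22 for Jak2, 0.086 for Tslp and 0.13 for Apoe. Leaving out 1 library, tumor log2 fold changes ran from -0.068 to 0.25 for Pogz, -0.29 to 0.085 for Sdc1, -1.42 to 0.27 for S100a9, -0.44 to 0.62 for Csf3, -0.32 to 0.50 for Csf3r, -0.46 to 0.11 for Tslp, -0.084 to 0.40 for Csf2ra, -0.022 to 0.90 for Csf2, -0.39 to 0.15 for Jak2, -0.42 to 0.18 for Apoe, -0.36 to 0.19 for Csf1, 0.11 to 0.61 for Csf1r, 0.13 to 0.59 for Il34, 0.26 to 0.87 for Csf2rb. Csf1 between VC tumors and cultures ran from -0.45 to 0.11, and receptors relative to markers from -0.10 to 0.18 for Csf1r and -0.21 to 0.15 for Csf2ra. With the median of the markers in place of the mean, Csf1r relative to them differed by -0.13. Without ribosomal and structural RNA genes, Csf1 was at 136 CPM in VC cultures, 318 in KO cultures and 110.4 in KO tumors. Same-numbered culture libraries did not deviate together (r of deviations -0.11, -0.01 and 0.05), which cannot exclude that they were handled together. A replicate block on the culture numbers gave 7237 called genes against 7523, with a Csf1 log2 fold change of 1.24 and the same 5 members called. Unless a value shows it, the cause of a change was not tested. The 15 to 77 counts of Csf2 in VC tumors limit what can be seen of that gene.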

Other observations

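Markers of other cell types were counted in the KO against VC comparisons of edgeR. In culture, 0 of 8 B and plasma cell markers and 0 of 6 adipocyte markers had enough counts to be tested. Over all genes 23.0% were called higher and 24.9% lower there, and counts near those shares say nothing particular of a list. Of those tested, 1 of 4 dendritic cell markers was higher and 1 lower, 1 of 1 of the eosinophil, mast cell and basophil markers was lower, and 1 of 3 T and NK cell markers was higher. Of fibroblast markers 2 of 4 were higher and 1 lower, of endothelial markers 1 of 2 was lower, of osteoclast markers 1 of 2 was higher, of skeletal muscle markers 0 of 3 were called, and of mammary epithelial markers 5 of 10 were higher and 5 lower. Among macrophage markers 0 of 5 were higher and 2 lower, and among neutrophil markers 0 of 2 were higher and 2 lower, namely Mmp9 and Ltf. In tumors 0 markers of any of these lists were called. Median log2 fold changes there ran from -0.24 for 3 skeletal muscle markers to 4.30 for 4 B and plasma cell markers, all 4 of which had an unadjusted p under 0.05. The sum of the B and plasma cell list was 1506 CPM in tumor POGZ_KO_8459. It was 18.6 and 91.3 CPM in tumors POGZ_KO_8454 and POGZ_KO_8455 and 5.45 to 19.95 CPM in VC tumors. The median of 10 fibroblast markers was 0.71.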
